A study of Homo sapiens with 8 samples.

Results

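The data are the replication origins at 8 human genes, LMNB2, TIMM13, MCM4, PRKDC, TOP1, HBB, DNMT1, and DBF4, whose origins were mapped one locus at a time. They are 8 of 20033 protein-coding genes. No measured value chose the origins: every origin that overlaps a gene body of GENCODE release 44 or the 10 kb on either side of it was taken. The 8 genes themselves were chosen with earlier results of these data known. The windows form 6 loci, since LMNB2 and TIMM13 are neighbours on chromosome 19 and MCM4 and PRKDC are neighbours on chromosome 8. They hold 10 of 30197 origins for WT, 10 of 33535 for *ORC1Δ*, 11 of 37813 for *ORC2Δ*, and 12 of 41332 for *ORC5Δ*, which join into 14 sites. In hg38 the gene bodies are LMNB2 at chr19:2427638-2456959, TIMM13 at chr19:2425625-2427586, MCM4 at chr8:47960185-47978160, PRKDC at chr8:47773111-47960178, TOP1 at chr20:41028822-41124487, HBB at chr11:5225464-5229395, DNMT1 at chr19:10133342-10231286, and DBF4 at chr7:87876216-87909553. MCM4, TOP1, and DBF4 are on the forward strand and the others on the reverse strand.

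Origins were measured by SNS-seq, which sequences short nascent DNA strands after size selection and digestion of other DNA with lambda exonuclease. The cells were HCT116 p53−/− colon cancer cells with intact ORC (WT) and the *ORC1Δ*, *ORC2Δ*, and *ORC5Δ* cells made from them with CRISPR–Cas9, so all 4 lines lack p53. Each line gave 2 replicates and the series 8 samples. For each line there is a list of the peaks found in both replicates, and 3 tables, one for each knockout line, give the reads of that line and of WT over the merged origins of the pair. The replicates were merged in the tables, so a line has 1 value per origin and table, the spread between replicates is not known, and no test was made. The lists and tables hold no measure of the ORC proteins, so the knockouts were not checked here.

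The lowest total of a line in a table was 6416892 reads and the highest 8523971, and the median origin had 110 to 137 reads. Reads were divided by the line's total in the table and are given as RPM, reads per 1000000. Log2 folds of the RPM are given with the exact 95% Clopper-Pearson interval, which covers counting error only, and an origin is called up or down at 1.5-fold. The tables count reads in listed origins, so a window without a listed origin has no read value.

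A replication origin is a place where DNA synthesis starts, and in eukaryotes it is licensed in G1 when ORC (the origin recognition complex), CDC6, and CDT1 load the minichromosome maintenance helicase. Human origins have no fixed consensus sequence, and most lie in GC-rich, open chromatin, often near promoters. The loci described here were mapped by nascent strand abundance, leading strand polarity, or protein binding. The lamin B2 origin lies at the 3′ end of LMNB2 beside the TIMM13 promoter, the MCM4 and PRKDC origin at their shared promoter, the TOP1, DNMT1, and DBF4 origins near the start of their genes, and the beta-globin initiation region around HBD and HBB. These places are general knowledge, and no published coordinates of the mapped origins were used here.

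The sequences on which the results turn are given first, all from hg38 and on the forward strand, with runs of at least 3 G or 3 C in capitals unless stated. The stretch between the LMNB2 and TIMM13 gene bodies is shown because it is taken here as the place of the lamin B2 origin. The 200 bases at the centre of 6 origins are shown because they are the strongest, the called, or the only ones of their locus. Origins are named by the nearest of the 8 genes and by the kb from its start to the midpoint of the origin, with plus in the direction of transcription. For LMNB2 +16.2 kb, capitals mark ATCC instead. The 250 bases before the TOP1 start come from RefSeq (GRCh38.p14) and are shown as a promoter near which an origin was mapped before and none was listed here.
LMNB2–TIMM13 spacer, chr19:2427587-2427637: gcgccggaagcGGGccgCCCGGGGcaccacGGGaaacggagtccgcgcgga
TIMM13 +3.2 kb, chr19:2424222-2424421: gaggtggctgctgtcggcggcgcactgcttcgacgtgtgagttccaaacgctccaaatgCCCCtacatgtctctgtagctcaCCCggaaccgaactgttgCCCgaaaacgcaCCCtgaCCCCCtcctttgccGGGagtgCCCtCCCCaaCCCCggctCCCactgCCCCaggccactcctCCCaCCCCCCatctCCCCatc
LMNB2 +23.9 kb, chr19:2432992-2433191: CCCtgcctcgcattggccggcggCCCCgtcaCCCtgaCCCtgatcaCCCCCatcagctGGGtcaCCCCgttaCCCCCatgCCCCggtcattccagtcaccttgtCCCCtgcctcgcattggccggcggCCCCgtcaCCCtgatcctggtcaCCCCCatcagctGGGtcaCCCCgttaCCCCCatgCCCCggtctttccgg
LMNB2 +20.3 kb, chr19:2436528-2436727: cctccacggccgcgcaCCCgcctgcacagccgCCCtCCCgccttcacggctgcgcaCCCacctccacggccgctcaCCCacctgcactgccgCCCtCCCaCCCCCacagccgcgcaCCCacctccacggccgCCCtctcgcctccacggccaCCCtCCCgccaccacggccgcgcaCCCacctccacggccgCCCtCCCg
LMNB2 +16.2 kb, chr19:2440621-2440820: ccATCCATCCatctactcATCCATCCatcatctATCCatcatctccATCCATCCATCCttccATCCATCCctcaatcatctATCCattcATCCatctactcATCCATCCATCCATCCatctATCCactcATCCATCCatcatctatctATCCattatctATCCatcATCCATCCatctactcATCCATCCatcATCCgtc
LMNB2 +11.1 kb, chr19:2445754-2445953: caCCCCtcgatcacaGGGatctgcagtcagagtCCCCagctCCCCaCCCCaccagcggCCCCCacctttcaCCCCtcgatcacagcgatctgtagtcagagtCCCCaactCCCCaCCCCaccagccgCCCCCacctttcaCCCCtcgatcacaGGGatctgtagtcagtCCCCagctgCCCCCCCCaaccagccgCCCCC
TOP1 +97.4 kb, chr20:41126152-41126351: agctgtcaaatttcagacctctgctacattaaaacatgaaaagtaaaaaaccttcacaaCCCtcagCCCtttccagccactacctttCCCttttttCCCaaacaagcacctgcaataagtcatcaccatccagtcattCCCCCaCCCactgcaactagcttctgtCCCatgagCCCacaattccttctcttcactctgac
TOP1 promoter, chr20:41028572-41028821: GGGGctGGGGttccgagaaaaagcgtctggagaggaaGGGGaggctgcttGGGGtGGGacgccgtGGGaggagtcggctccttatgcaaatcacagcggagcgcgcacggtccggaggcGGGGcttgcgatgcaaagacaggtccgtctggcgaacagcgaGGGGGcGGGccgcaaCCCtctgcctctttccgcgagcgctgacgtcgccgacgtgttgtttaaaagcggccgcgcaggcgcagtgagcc
The spacer is 80.4% GC with 10 CpG, and the TOP1 promoter is 66.8% GC with 28 CpG. The LMNB2 +16.2 kb stretch holds 26 copies of ATCC, and it has 86 C and 1 G.

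Origins were found in the windows of LMNB2, TIMM13, and TOP1 in WT cells, and in those of MCM4 and PRKDC in knockout cells. The windows of HBB, DNMT1, and DBF4 held no origin in any of the 4 lines. In WT cells, 3 of the 8 genes had an origin in their window, beside 47.6% of all protein-coding genes. In each knockout line the number was 4 of 8, beside 49.7% of protein-coding genes for *ORC1Δ*, 53.0% for *ORC2Δ*, and 55.5% for *ORC5Δ*. A map of the windows shows that the origins are crowded into a single locus.

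**Figure D1:**
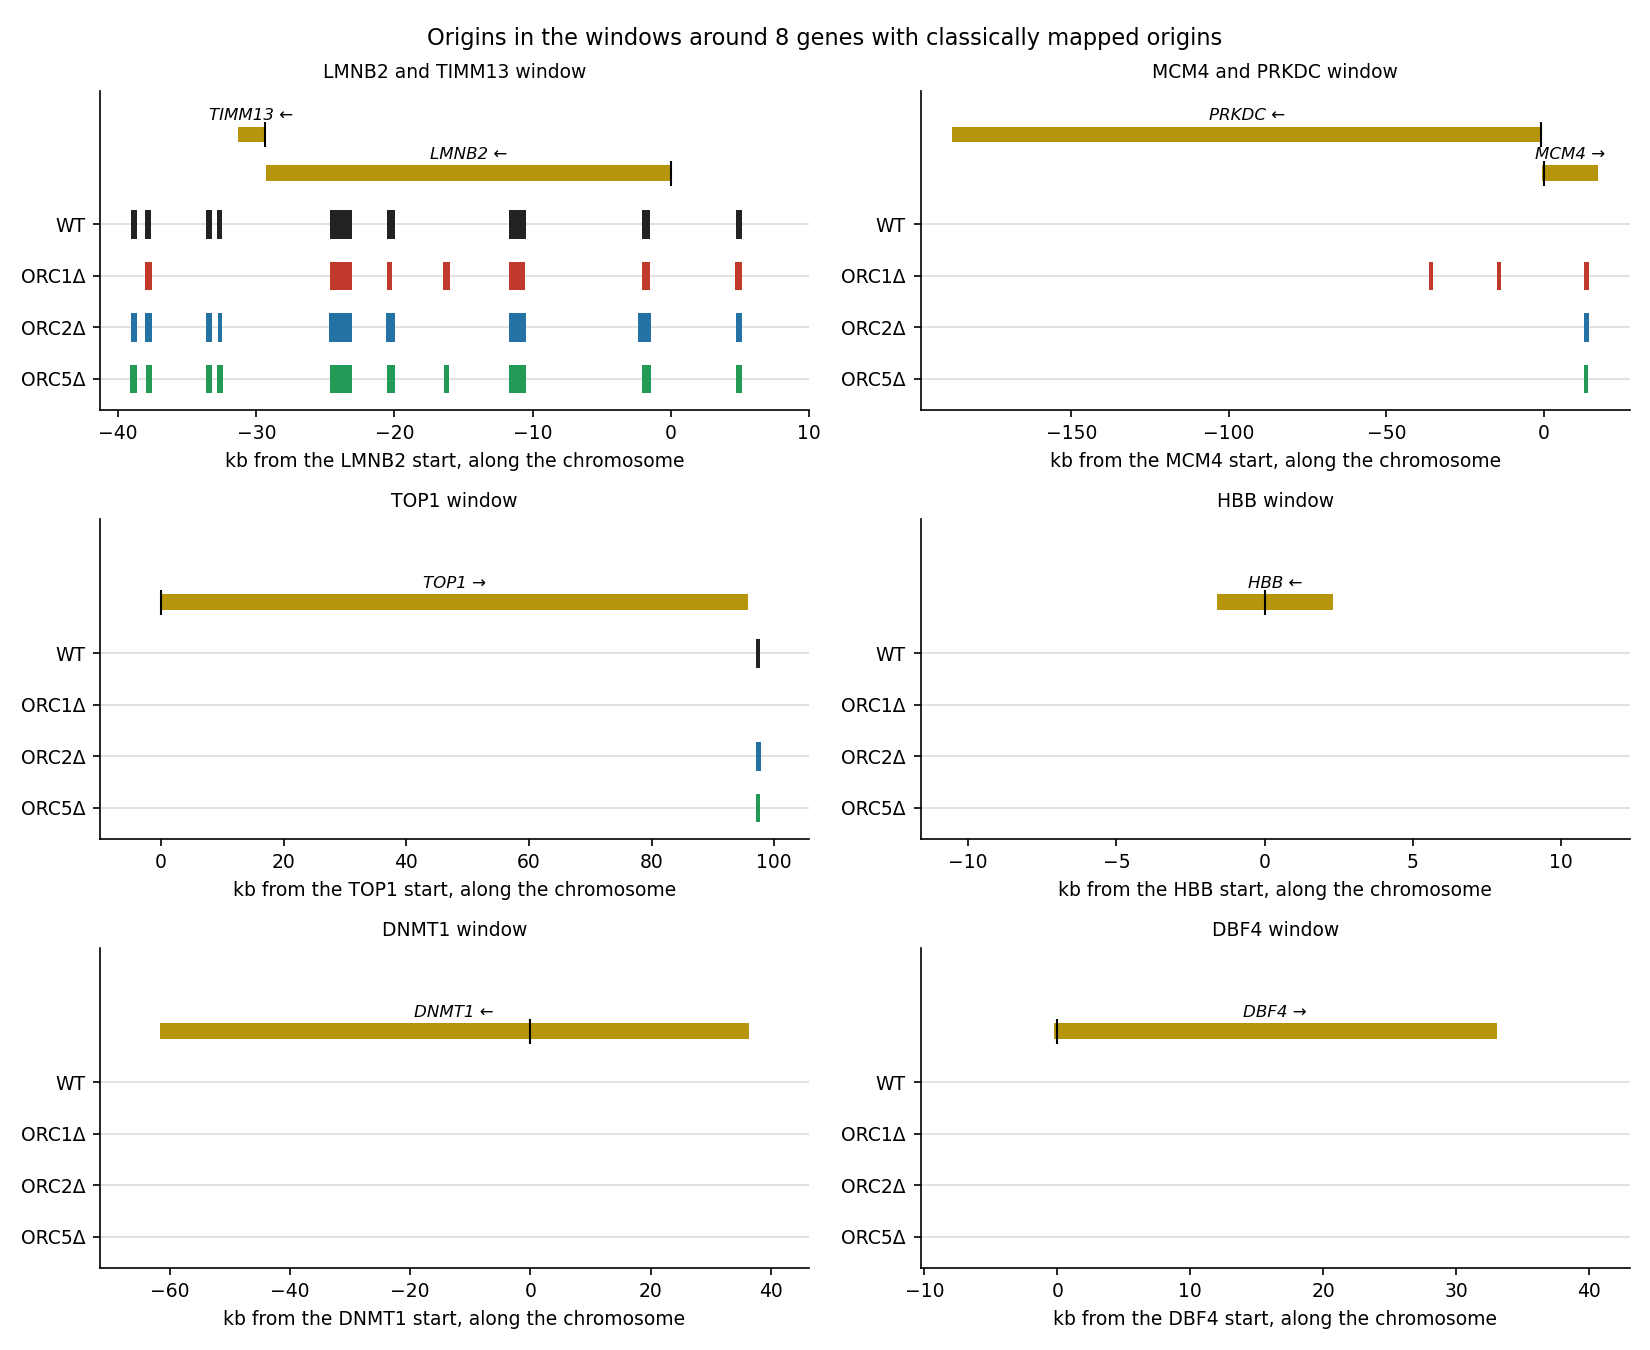
Map of the 6 windows, with the distance in kb from the start of the first-named gene along the chromosome on the x axis and the 4 lines as rows. Gold bars are gene bodies with an arrow for the direction of transcription and a tick at the start, and filled boxes are listed origins, drawn at least 0.6% of the window wide. The LMNB2 and TIMM13 window holds 9 WT origins, and the HBB, DNMT1, and DBF4 windows hold none.

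LMNB2 codes for lamin B2, an intermediate filament protein of the nuclear lamina, and TIMM13 for a chaperone that guides proteins through the mitochondrial intermembrane space. Their joint window of 51.3 kb held 9 WT origins, against 7, 9, and 10 for *ORC1Δ*, *ORC2Δ*, and *ORC5Δ*. The LMNB2 window alone held as many, and 1.70% of protein-coding genes had at least 9 WT origins in their window. The TIMM13 window held 6 origins in WT, *ORC2Δ*, and *ORC5Δ* cells and 3 in *ORC1Δ* cells. The region is dense in origins beyond the genes themselves, with 154 WT origins in LMNB2 and the 1 Mb on either side of it (75.9 per Mb), beside 41.3 per Mb on chromosome 19 and 9.78 per Mb over the genome.

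No origin overlapped the stretch between LMNB2 and TIMM13, taken here as the place of the classical lamin B2 origin. The spacer of 51 bp between the gene bodies, chr19:2427587-2427637, and the stretch of 579 bp between the canonical transcripts, chr19:2427587-2428165, were free of origins in all 4 lines. Seen from the spacer, the nearest WT origin lay 3.10 kb away on the TIMM13 side and 4.69 kb away on the LMNB2 side. In *ORC2Δ* and *ORC5Δ* cells these distances were 3.08 and 4.59 kb and 3.06 and 4.63 kb. In *ORC1Δ* cells the origin on the TIMM13 side was absent from the list, and the nearest lay 8.19 kb away on that side and 4.64 kb away on the other. The spacer sits in a CpG island of 3978 bp (chr19:2424008-2427985) that covers the TIMM13 start, and the origin on the TIMM13 side overlaps the far end of this island.

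Most reads of the locus lay in a pair of broad origins inside LMNB2. LMNB2 +23.9 kb (chr19:2432329-2433871 in WT, exons 8 to 9 and introns 8 and 9) had 807 WT and 625 *ORC1Δ* reads, 810 WT and 868 *ORC2Δ* reads, and 805 WT and 888 *ORC5Δ* reads. LMNB2 +11.1 kb (chr19:2445231-2446496 in WT, intron 1) had 813 WT reads in each table against 779 for *ORC1Δ*, 891 for *ORC2Δ*, and 929 for *ORC5Δ*. In WT RPM each of them stood above 99.6% of all origins of any table, and together they took 61.4% of the WT reads of the locus in the *ORC1Δ* table. They were also wide, at 1543 and 1266 bp in WT against a median of 525 bp over all WT origins. Per kb of row in the *ORC1Δ* table, LMNB2 +23.9 kb had 77.7 and LMNB2 +11.1 kb 100.1 WT RPM, against 68.8 for LMNB2 +20.3 kb, so the first exceeds its neighbour far less per length than in total.

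Neither of the broad origins was called in any line. At LMNB2 +11.1 kb the log2 fold was −0.12 (−0.27 to 0.02) for *ORC1Δ*, −0.10 (−0.24 to 0.04) for *ORC2Δ*, and −0.12 (−0.25 to 0.02) for *ORC5Δ*. At LMNB2 +23.9 kb it was −0.43 (−0.58 to −0.28) for *ORC1Δ*, −0.13 (−0.27 to 0.01) for *ORC2Δ*, and −0.17 (−0.31 to −0.03) for *ORC5Δ*. None of the 6 values passed 1.5-fold, and the 3 comparisons share the WT cells. In *ORC1Δ* cells the value at LMNB2 +23.9 kb was −0.26 relative to the median of the other origins within 2.5 Mb and −0.16 after a correction for GC content, and at LMNB2 +11.1 kb these corrections turned the sign, to 0.04 and 0.14.

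**Figure D2:**
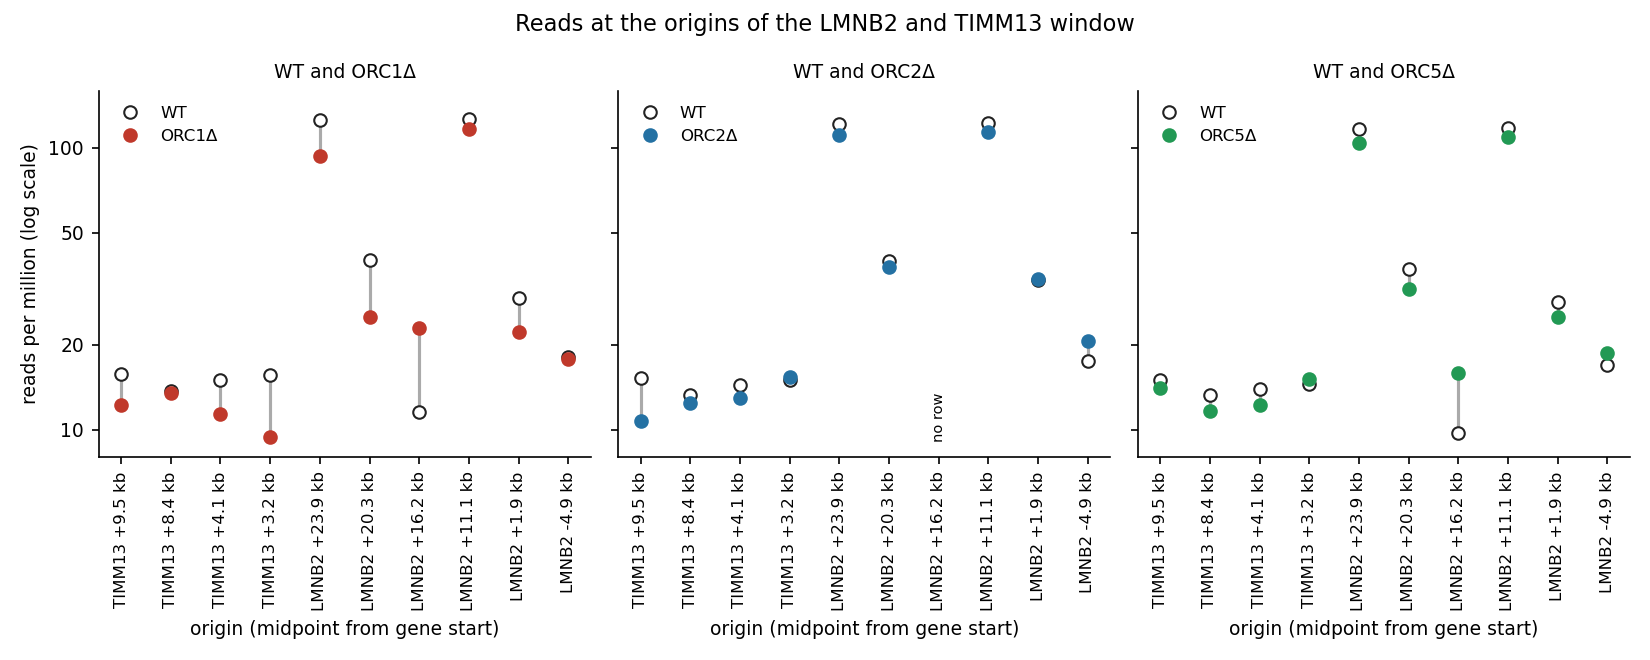
RPM (log scale) at the 10 origins of the LMNB2 and TIMM13 window, in chromosome order, with WT as open and the knockout line as filled circles in a panel for each table. LMNB2 +23.9 kb and +11.1 kb stand far above the others in every line in RPM not scaled to length, and LMNB2 +16.2 kb is the origin at which *ORC1Δ* (22.9 against 11.5 RPM) and *ORC5Δ* (15.8 against 9.74 RPM) lie clearly above WT. It has no row in the *ORC2Δ* table.

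Called changes at the locus were few. In *ORC1Δ* cells 2 of 14 origins of all windows were down and 1 was up, beside 3.95% down and 7.04% up over all origins. In *ORC2Δ* cells none of 11 was called, beside 3.58% down and 4.66% up. In *ORC5Δ* cells 1 of 12 was up and none down, beside 2.08% up and 0.68% down. The median log2 fold over the origins of the windows was −0.07, −0.09, and −0.10, beside −0.01, −0.04, and −0.00324 over all origins. With so few origins these counts do not set the genes apart from the background.

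Both origins that were down lie in the LMNB2 and TIMM13 window. TIMM13 +3.2 kb (chr19:2424149-2424484 in WT, exon 16 and intron 16 of TMPRSS9, a transmembrane serine protease gene) had 100 WT reads in each table against 63 for *ORC1Δ*, 120 for *ORC2Δ*, and 129 for *ORC5Δ*. Its log2 fold was −0.73 (−1.21 to −0.26) for *ORC1Δ*, 0.03 (−0.37 to 0.43) for *ORC2Δ*, and 0.06 (−0.33 to 0.45) for *ORC5Δ*. It is the origin nearest to the lamin B2 site on the TIMM13 side and is missing from the *ORC1Δ* list. Of the rows that *ORC1Δ* cells lost from the list over the genome, 14.4% were down. LMNB2 +20.3 kb (chr19:2436423-2437002 in WT, intron 4) had 256 WT and 168 *ORC1Δ* reads, 263 WT and 295 *ORC2Δ* reads, and 256 WT and 270 *ORC5Δ* reads. Its log2 fold was −0.67 (−0.96 to −0.38) for *ORC1Δ*, −0.07 (−0.31 to 0.18) for *ORC2Δ*, and −0.23 (−0.48 to 0.02) for *ORC5Δ*. In *ORC1Δ* cells the 419 other origins within 2.5 Mb of the window had a median log2 fold of −0.16. After that median was taken off, the values were −0.56 and −0.50, and neither passed 1.5-fold. After a correction for GC content they were −0.41 and −0.29.

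The origin that was up, LMNB2 +16.2 kb, is in intron 2 and was listed in *ORC1Δ* (chr19:2440444-2440998) and *ORC5Δ* cells (chr19:2440537-2440903) but not in WT or *ORC2Δ* cells. It had 74 WT and 153 *ORC1Δ* reads in one table and 67 WT and 135 *ORC5Δ* reads in the other. The log2 fold was 0.99 (0.58 to 1.41) for *ORC1Δ* and 0.70 (0.27 to 1.15) for *ORC5Δ*, and it stayed above 1.5-fold after the regional median and after the GC correction. It entered each table because the knockout line has an origin there, and of all rows listed in the knockout line alone 19.9% were up in *ORC1Δ* and 4.89% in *ORC5Δ* cells.

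This origin differs from its neighbours in its ATCC repeats and its lower GC content. It holds 43 copies of ATCC on the forward strand, with up to 5 in a row, and it is the single site of the 14 with 4 or more adjacent copies, counting both strands and every rotation of the unit. Such a repeat was in 3.45% of *ORC1Δ* and 2.96% of *ORC5Δ* origins on the 5 chromosomes of the genes, and in 2.56% of the 8413 WT origins there. The motif was looked for because the study reports it as enriched at origins up in all its knockout lines, in these same data. The shares of rows up that follow are therefore not independent of that report. Of the rows with the repeat on these chromosomes, 48.3% of 331 were up for *ORC1Δ*, 29.5% of 329 for *ORC2Δ*, and 21.0% of 333 for *ORC5Δ*, beside the 7.04%, 4.66%, and 2.08% over all origins of the genome. On the forward strand LMNB2 +16.2 kb has 224 C and 47 G, a GC skew of −0.65, and so it is G-rich on the strand that reads as the LMNB2 transcript. Of its bases 48.8% are G or C. A similar skew of −0.60 was seen at TIMM13 +8.4 kb, which was called in no line.

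Other origins of the locus are repetitive to some degree. LMNB2 +23.9 kb repeats with a period of 105 bp, so that 69.4% of its bases equal the base one period before, which is more than in 97.9% of the WT origins on these chromosomes. For LMNB2 +11.1 kb the period was 69 bp with 58.5% of bases (above 94.1% of WT origins), and for LMNB2 +20.3 kb it was 20 bp with 52.4% (above 91.2%). TIMM13 +8.4 kb had a period of 4 bp with 54.9% (above 92.3%), and LMNB2 +16.2 kb a period of 4 bp with 57.7% (above 93.8%). At a cut of 60%, 1 of the 14 sites passed, LMNB2 +23.9 kb. By their own bounds 2 of the 10 WT origins passed, beside 5.27% of the WT origins on these chromosomes. The number of copies in these cells may differ from that in hg38 and was not measured. The repeats can be read in the sequences given above, where LMNB2 +11.1 kb carries the same block of CCCC runs more than once.

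The remaining origins of the locus had 88 to 226 WT reads and none was called. LMNB2 +1.9 kb, the origin nearest to the LMNB2 start, lies in intron 1, 1481 bp from the start in WT, and 1484, 1417, and 1415 bp from it in *ORC1Δ*, *ORC2Δ*, and *ORC5Δ* cells. It had 188 WT and 149 *ORC1Δ* reads, 226 WT and 268 *ORC2Δ* reads over a wider row, and 196 WT and 214 *ORC5Δ* reads. In log2, knockout over WT, this is −0.40 (−0.72 to −0.08), 0.01 (−0.25 to 0.27), and −0.18 (−0.47 to 0.10), in the order *ORC1Δ*, *ORC2Δ*, *ORC5Δ*. For *ORC1Δ* the value was −0.23 after the regional median and also after the GC correction. TIMM13 +9.5 kb had 101 WT and 84 *ORC2Δ* reads, a log2 fold of −0.50 (−0.93 to −0.07), and was the single origin whose interval left out 0 in *ORC2Δ* cells. LMNB2 −4.9 kb lies in LINC01775, a long non-coding RNA gene upstream of LMNB2, and TIMM13 +9.5 kb, +8.4 kb, and +4.1 kb lie in TMPRSS9, past the 3′ end of TIMM13.

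Summed over its rows, the locus had 2639 WT and 2304 *ORC1Δ* reads, 2613 WT and 2885 *ORC2Δ* reads, and 2644 WT and 3048 *ORC5Δ* reads. The log2 fold was −0.26 (−0.34 to −0.18) for *ORC1Δ*, −0.09 (−0.17 to −0.01) for *ORC2Δ*, and −0.10 (−0.18 to −0.03) for *ORC5Δ*. The regional medians were −0.16, −0.00138, and 0.00223, and after the correction for GC content the sums were −0.023, −0.029, and −0.065. The share of WT reads in the broad pair, 61.4%, stood beside 60.9% for *ORC1Δ* reads in the same table.

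**Figure D3:**
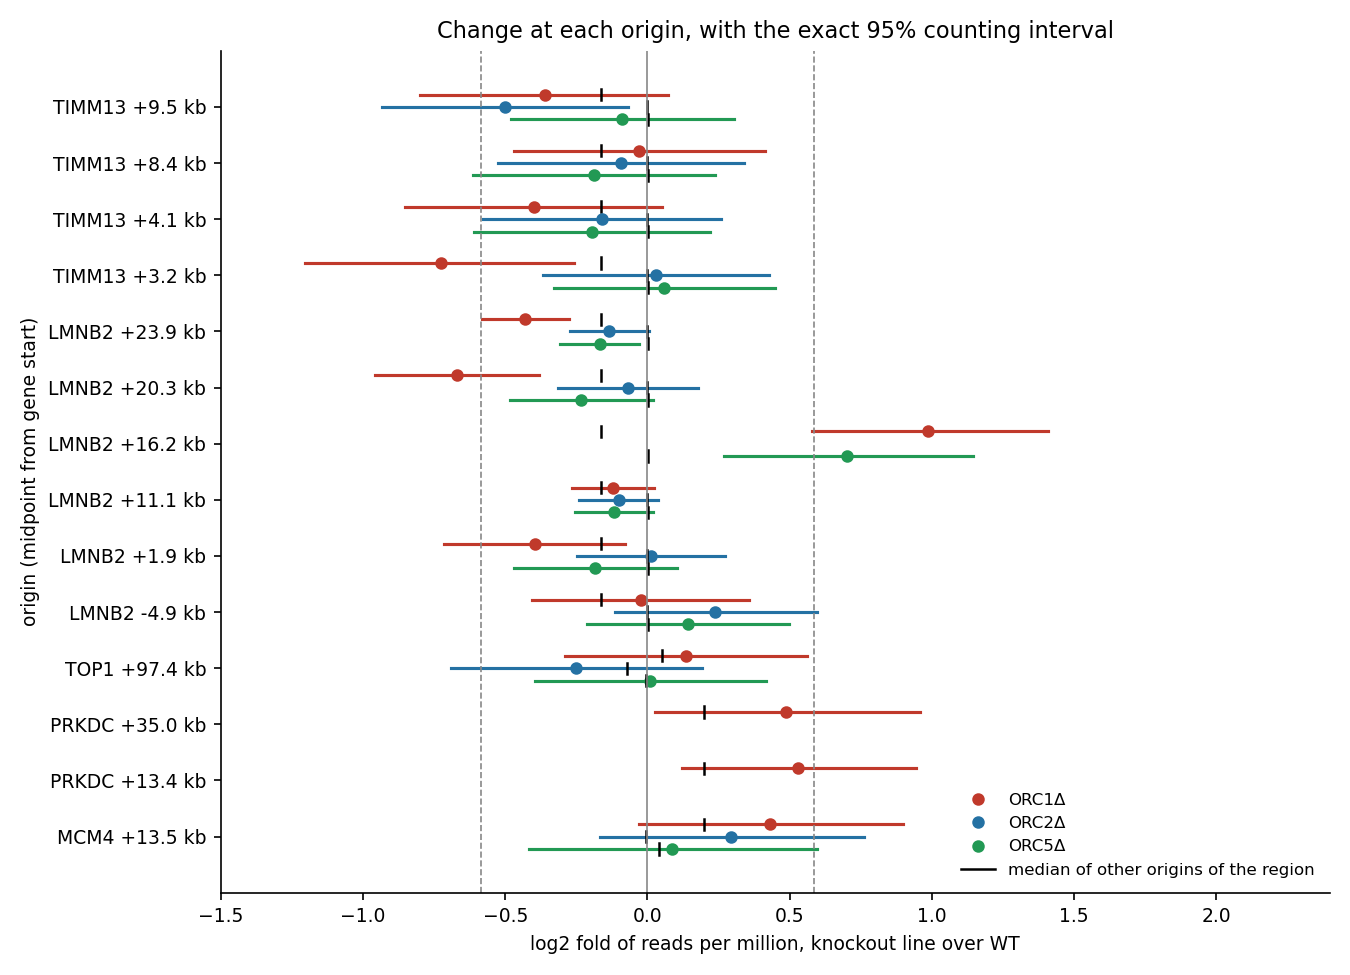
Log2 fold of RPM, knockout line over WT, for each of the 14 origins, with the exact 95% counting interval as a bar and a dash at the median of the other origins within 2.5 Mb of the window. Dashed lines mark 1.5-fold. LMNB2 +16.2 kb lies above the upper line in *ORC1Δ* and *ORC5Δ* cells, TIMM13 +3.2 kb and LMNB2 +20.3 kb lie below the lower line in *ORC1Δ* cells, and the other points lie between the lines.

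MCM4 is a subunit of the helicase that licensing loads, and PRKDC is the catalytic subunit of the DNA-dependent protein kinase, which acts in end joining of double-strand breaks. The genes run apart from starts 804 bp from each other, inside one CpG island of 1449 bp. No WT origin was listed in either window, and the genes lay in a WT gap of 602 kb between neighbouring origins. The nearest WT origin was 28.4 kb from the MCM4 start. In each knockout line an origin appeared in intron 14 of MCM4 (chr8:47974205-47974679 over the 3 lines), 13.3 kb from the start. It had 69 WT and 97 *ORC1Δ* reads, 68 WT and 98 *ORC2Δ* reads, and 60 WT and 79 *ORC5Δ* reads. Its log2 fold was thus 0.43 (−0.03 to 0.90) for *ORC1Δ*, 0.29 (−0.17 to 0.76) for *ORC2Δ*, and 0.09 (−0.42 to 0.60) for *ORC5Δ*, so each interval includes 0 although the lists hold the origin for every knockout and not for WT.

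In *ORC1Δ* cells PRKDC held 2 more origins, in intron 7 (chr8:47946467-47947087) and intron 21 (chr8:47924884-47925382). The first had 85 WT and 128 *ORC1Δ* reads with a log2 fold of 0.53 (0.12 to 0.94). The second had 67 WT and 98 *ORC1Δ* reads with a log2 fold of 0.49 (0.03 to 0.96). Neither was called. The 22 other origins within 2.5 Mb had a median log2 fold of 0.20 in *ORC1Δ* cells, and rows listed in *ORC1Δ* alone had a median of 0.31 over the genome. No origin in any line overlapped the shared island, and in no line did one lie within 13 kb of either start.

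TOP1, the topoisomerase that relaxes supercoils through nicks in 1 strand, had 1 origin in its window in WT, *ORC2Δ*, and *ORC5Δ* cells and none in the *ORC1Δ* list. TOP1 +97.4 kb (chr20:41125934-41126440 in WT) begins 1447 bp past the end of the gene, in an intron of the long non-coding RNA gene PLCG1-AS1. It had 89 WT and 102 *ORC1Δ* reads, 89 WT and 88 *ORC2Δ* reads, and 93 WT and 116 *ORC5Δ* reads. As log2 folds these are 0.14 (−0.29 to 0.56) for *ORC1Δ*, −0.25 (−0.69 to 0.19) for *ORC2Δ*, and 0.01 (−0.40 to 0.42) for *ORC5Δ*. The *ORC1Δ* interval includes 0, although the origin is missing from that list. At the TOP1 start, which lies in a CpG island of 1351 bp, no line had an origin, and the nearest was 83.1 kb away in each of the 4 lines.

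HBB codes for beta-globin, and its expression in these cells was not measured here. The window held no origin in any line, nor did those of HBD and HBG1. In WT cells HBB lay in a gap of 1.69 Mb (chr11:4237290-5929344), with the nearest origin 702 kb from its start. In the knockout lines the nearest lay 257, 256, and 257 kb away in *ORC1Δ*, *ORC2Δ*, and *ORC5Δ* cells. HBB and the 1 Mb on either side held 3 origins in WT against 17, 13, and 16 in *ORC1Δ*, *ORC2Δ*, and *ORC5Δ* cells. Over the genome, the lines had 9.78, 10.9, 12.2, and 13.4 origins per Mb in the same order.

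A pair of these origins lies inside the long HBG2 and HBE1 annotations, far upstream of the usual globin transcripts, and was listed in all 3 knockout lines. The first had 115 WT and 125 *ORC1Δ* reads, 118 WT and 182 *ORC2Δ* reads, and 116 WT and 145 *ORC5Δ* reads. The second had 79 WT and 94 *ORC1Δ* reads, 98 WT and 145 *ORC2Δ* reads, and 129 WT and 162 *ORC5Δ* reads. The highest log2 fold of the 6 was 0.39 (0.05 to 0.74), for the first in *ORC2Δ* cells, and none passed 1.5-fold. In the whole WT gap the tables hold 9, 6, and 8 rows, of which 2, 0, and 0 were up in *ORC1Δ*, *ORC2Δ*, and *ORC5Δ* cells. All of these rows entered through a knockout list. Their median log2 fold was 0.29, 0.08, and 0.09, beside 0.31, 0.11, and 0.11 for such rows over the genome. Of such rows over the genome, 19.9%, 11.8%, and 4.89% were up, in the same order.

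DNMT1, the methyltransferase that copies CpG methylation onto new strands, lies in a part of chromosome 19 with many origins but had none in its window. It sat in a gap of 176 kb in WT and *ORC1Δ* cells, and of 170 kb in *ORC2Δ* and *ORC5Δ* cells. DNMT1 and the 1 Mb on either side held 78 WT origins, against 70, 93, and 98 in *ORC1Δ*, *ORC2Δ*, and *ORC5Δ* cells. The start of the canonical transcript is in a CpG island of 898 bp, and the nearest origin lay 81.6 kb away in WT and *ORC1Δ*, 76.0 kb away in *ORC2Δ*, and 75.9 kb away in *ORC5Δ* cells.

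DBF4, the regulatory subunit of the CDC7 kinase that activates licensed origins, lay in the widest gap. No WT origin was found in 5.54 Mb around it (chr7:83800067-89336469), and 36 of 30173 gaps between WT origins were as long. The nearest WT origin was 1460 kb from the start, against 666 kb for *ORC1Δ*, 319 kb for *ORC2Δ*, and 645 kb for *ORC5Δ*. DBF4 and the 1 Mb on either side held 0 WT origins and 4, 6, and 4 in *ORC1Δ*, *ORC2Δ*, and *ORC5Δ* cells. Within the WT gap there were 6 rows for *ORC1Δ*, with 34 to 82 WT and 69 to 127 *ORC1Δ* reads, and 4 of them were up. For *ORC2Δ* there were 8 rows with 1 up, and for *ORC5Δ* 4 rows with none up. Summed over these rows, the log2 fold was 0.60 (0.40 to 0.79) for *ORC1Δ*, 0.24 (0.09 to 0.40) for *ORC2Δ*, and 0.14 (−0.09 to 0.36) for *ORC5Δ*. These rows also came from the knockout lists alone, and of all such rows over the genome 19.9%, 11.8%, and 4.89% were up, in the same order.

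**Figure D4:**
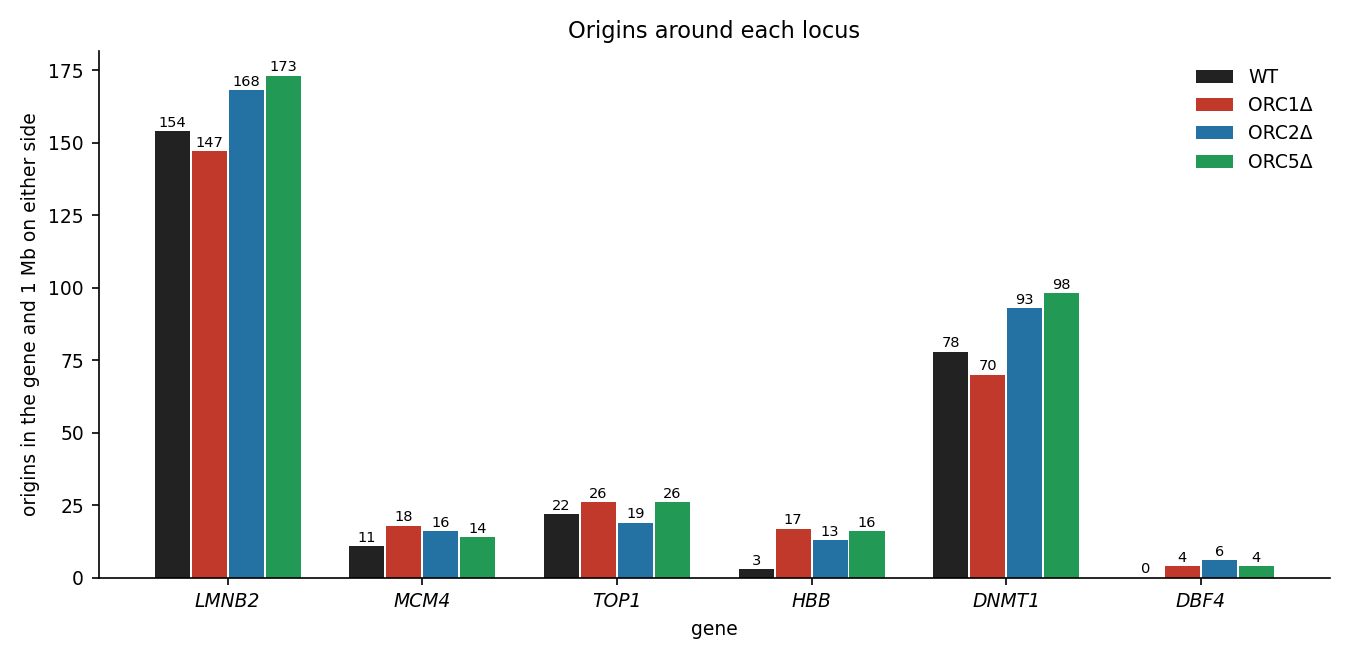
Origins in one gene of each locus and the 1 Mb on either side of it, counted in the 4 lists (bars, with the count above each). For HBB the lists hold 3 origins in WT and between 13 and 17 in the knockout lines, and for DBF4 0 and between 4 and 6. LMNB2 and DNMT1 are lowest in *ORC1Δ* cells. The counts are of listed origins, not of reads.

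None of the 8 starts had an origin within 1 kb in any line, LMNB2 being the nearest with 1415 to 1484 bp. Over all protein-coding genes, 18.1% of starts had one in WT, 15.8% for *ORC1Δ*, 20.3% for *ORC2Δ*, and 21.1% for *ORC5Δ*. Of the 8 starts, 7 lie in a CpG island and HBB does not, and 22.3% of the 13157 island starts had a WT origin within 1 kb.

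Among other genes with locally mapped origins, MYC had an origin 463 bp from its start in WT and within 464 bp in each knockout line. Its window held 3 origins in WT, 1 for *ORC1Δ*, 4 for *ORC2Δ*, and 2 for *ORC5Δ*. HPRT1 and FMR1, both on the X chromosome, had no origin in their windows in any line. The nearest to the HPRT1 start was 287 kb away in WT and 1514 kb away in *ORC1Δ* cells.

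**Figure D5:**
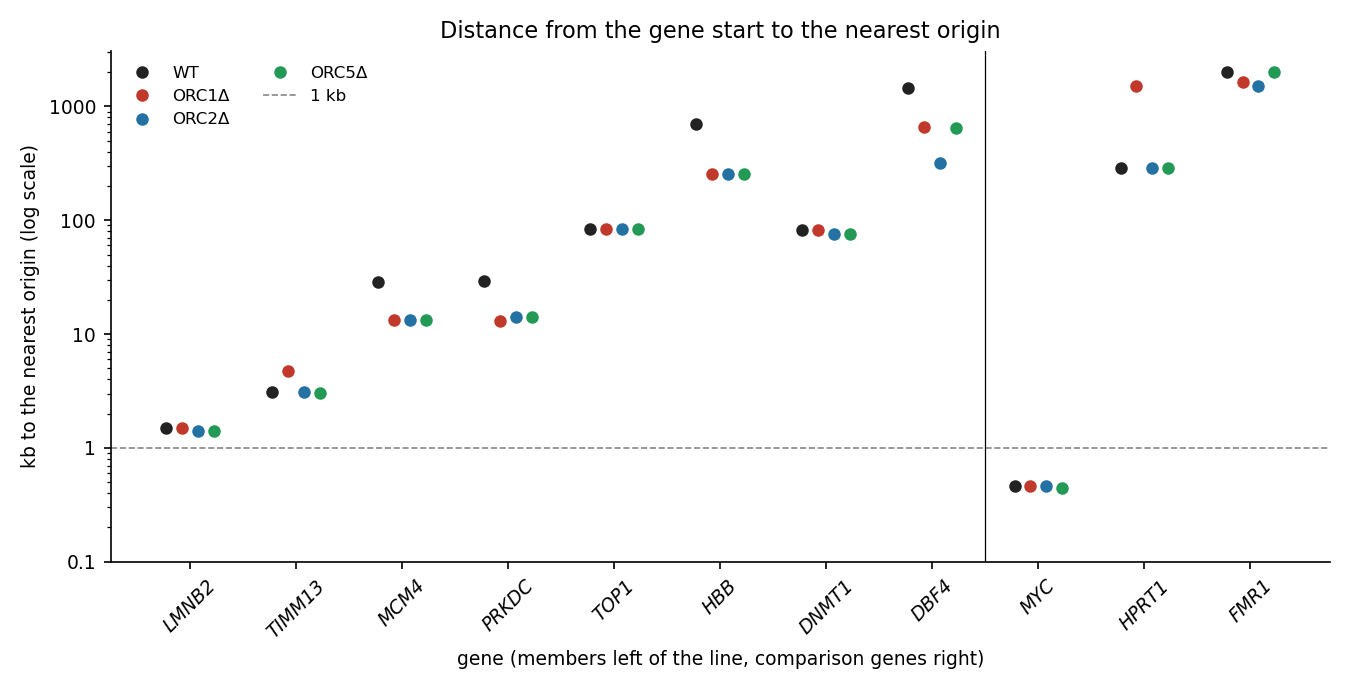
Distance in kb (log scale) from the start of the canonical transcript to the nearest origin for the 8 genes and 3 comparison genes, in each of the 4 lines (points), with a dashed line at 1 kb. MYC lies below the line in every line, LMNB2 just above it, and HBB and DBF4 at more than 250 kb, farthest in WT cells.

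Of the 10 WT origins in the windows, 6 overlapped an origin in each knockout line (60%, exact 95% interval 26.2% to 87.8%), beside 60.4% of all WT origins. The interval treats the origins as independent, although all but TOP1 +97.4 kb are neighbours in the LMNB2 and TIMM13 window. All 10 were found in *ORC2Δ* and *ORC5Δ* cells (69.2% to 100% for each), beside 78.6% and 82.6%. In *ORC1Δ* cells 6 were found (26.2% to 87.8%), beside 71.1%. Each interval holds the share over all WT origins. The 4 that were missing from the *ORC1Δ* list were 3 origins in TMPRSS9 and TOP1 +97.4 kb, with 89 to 101 WT reads each. The 6 that remained, 5 of them around LMNB2 and TIMM13 +8.4 kb, had 88 to 813 WT reads.

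In base composition the sites differed among themselves. GC content ran from 47.6% at MCM4 +13.5 kb to 68.8% at TIMM13 +3.2 kb, and the 10 WT origins had a median of 64.3% beside 54.8% for all WT origins. All of the 10 but TOP1 +97.4 kb (49.1% as a site) lie at LMNB2 and TIMM13, so the median describes mainly that locus. On the forward strand, 13 of 14 sites had more C than G, the exception being TIMM13 +4.1 kb. The share of all origins with more C on that strand was not measured, so this count has no background. Of the 14 sites, 10 are neighbours at LMNB2 and TIMM13. The median absolute GC skew of the WT origins was 0.32, beside 0.34 for all WT origins. A motif of 4 runs of at least 3 G, or of 3 C for the other strand, with 1 to 7 bases between runs, was in 7 of the 10 WT origins and in 59.0% of the WT origins on the same chromosomes. All 7 were at LMNB2 and TIMM13, and none of the sites at TOP1, MCM4, or PRKDC held it. CpG islands overlapped 4 of the 10 WT origins, all at LMNB2 and TIMM13, beside 16.3% of all WT origins.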

How the data were processed

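SNS-seq of 4 HCT116 p53−/− lines (2 replicates each) was used. Per the labels, reads were trimmed with Trim Galore and aligned to GRCh38 with Bowtie. Peaks were called with MACS2 in each replicate, and the authors kept those found in both. The deposited tables hold raw read counts per joined origin of WT and one knockout line, with replicates merged; how duplicate reads were treated is not given in the sources used here. Intervals cover counting error only, and reads without molecular identifiers are not independent molecules.

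Positions are 1-based on hg38, with GENCODE release 44. An overlap of 1 bp or more counted. Gene starts are those of canonical transcripts. Counts were divided by the line's total in the table. CpG islands were high-scoring segments of at least 200 bp with at least 50% GC and observed over expected CpG above 0.6. The calls were tested on counts simulated without spread between replicates and with changes larger than those called here. The 8 genes and the comparison list were chosen with earlier results of these data known, and 1 comparison gene is not reported here. All 8 genes were named, and of their origins those nearest the start, with most WT reads, at the classical site, or past 1.5-fold were given in full. The search for tandem repeats was chosen after the sequences were seen. Alternatives covered the flank, the overlap, scaling (edgeR 4.0.16 TMM factors and median of ratios), thresholds, a read filter, the regional median, and GC content. The software was Python 3.11.15, numpy 2.4.6, pandas 2.3.3, scipy 1.17.1, numba 0.67.0, matplotlib 3.10.9, and R 4.3.3.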

Additional observations from a re-analysis of the deposited data

How the results depend on the processing

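The number of origins in the windows follows the flank. With the gene bodies alone WT had 4, *ORC1Δ* 8, *ORC2Δ* 5, and *ORC5Δ* 6, and with 20 kb on either side 16, 15, 20, and 21. The share of WT origins found in all 4 lines was 60% under each rule of overlap. In *ORC1Δ* cells, the 2 origins that were down became 0 after the regional median, after the GC trend, and at 2-fold, and 4 had an interval below 0. The 1 origin up in *ORC1Δ* cells became 0 at 2-fold, and 3 had an interval above 0. In *ORC5Δ* cells, the 1 origin up became 0 at 2-fold, and by the interval 1 origin was down where none was called. In *ORC2Δ* cells, 1 origin had an interval below 0 where none was called. The summed log2 fold of the LMNB2 and TIMM13 locus in *ORC1Δ* cells was −0.26, and it was −0.092 after the regional median and −0.023 after the GC trend. TMM factors, median of ratios, and the filter of 100 reads moved none of these counts by over 1.5 times. No paired analysis was possible because the tables merge the replicates of each line, and for the same reason no replicate could be left out. Origins with near 100 reads have intervals of about 0.4 on either side on the log2 scale.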
